A study of Drosophila melanogaster with 2 samples.

Results

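The genes described here encode the proteins of the mitochondrial ribosome of Drosophila melanogaster. They were taken as every protein-coding gene of the dm6 annotation whose symbol is mRpL (large subunit) or mRpS (small subunit) followed by a number and at most 1 letter. Of 13945 protein-coding genes on the main chromosome arms, 73 met this rule, 47 of them mRpL genes and 26 mRpS genes, and they are called mRp genes below. At each promoter, peaks of the chromatin protein CG6683 were looked up in ChIP-seq peak lists (chromatin immunoprecipitation followed by sequencing). Both samples were chromatin of whole, mixed-sex embryos collected over 6 to 24 h from a stable transgenic line in which GFP is joined to the C-terminus of CG6683. The tagged protein was pulled down with anti-GFP antibody after sonication to a size range of 200 to 800 bp, per the labels. There was 1 group, with 2 biological replicates numbered 2 and 3, and the lists were made against a control alignment. The embryos mix all cell types, the lists cannot say in which of them a site was bound, and the promoter that drives the transgene is not given in the sources used here.

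Mitochondrial ribosomes translate the few proteins encoded by mitochondrial DNA, all of them parts of the respiratory chain and ATP synthase. Their RNA comes from the mitochondrial genome, whereas their proteins are encoded in the nucleus, made in the cytosol and imported. Some are counterparts of bacterial ribosomal proteins, and others were added during the evolution of mitochondria. Many fly housekeeping genes, including genes for mitochondrial proteins, stand head to head with a neighbour, so that a single short gap holds the promoters of both.

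The optimal list, which the authors made by IDR thresholding (irreproducible discovery rate, a measure of how well peaks rank alike in replicates), held 2964 peaks on the main arms. All 2964 intervals were also in the list of pooled candidates, which held 29984 entries there. That list is labelled as peaks and background used as input for IDR, so a candidate outside the optimal list may be background. The value of a peak is the authors' signal, with no normalization stated. It ran from 170.6 to 3257 over the optimal peaks, with a median of 261. Read depth is unknown, since peak lists hold no counts. The replicate labels of the 2 builds went against each other. Of the intervals on arm 2L in the dm6 list labelled replicate 2, 96.9% were in the dm3 list labelled replicate 3 and 0 in the dm3 list labelled replicate 2. Of those in the dm6 list labelled replicate 3, 87.8% were in the dm3 list labelled replicate 2. The dm6 labels are used below as names only.

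The sequences that follow are gaps between an mRp gene and its head-to-head neighbour, shown because most of the strongest CG6683-GFP summits near mRp genes fell inside such gaps. They are from the RefSeq Release 6 genome (dm6), 5′ to 3′ on the strand of the mRp gene, from the base after the neighbour's start to the base before the mRp start. Capitals mark the words CAGCTG (the E-box), ACAGTG and AAATAT on either strand. A copy that runs across the edge of a gap is not marked. This is so at mRpL11, whose E-box began at -5 bp from the start and ran past the gap. The gaps of mRpS10 (chr3R:15229409-15229664, plus strand), mRpS2 (chr2L:4850420-4850640, minus strand) and mRpL24 (chr2L:4945362-4945578, minus strand) held an optimal summit. It lay at base 122 of the mRpS10 gap, at base 64 of the mRpS2 gap and at base 104 of the mRpL24 gap. The gap of mRpL27 (chr2L:4459639-4459728, minus strand) had its optimal summit just outside, inside the neighbour. The gap of mRpL32 (chr3R:31252609-31252871, plus strand), which held the most E-boxes of the gaps shown, had a pooled candidate only, with its summit at base 183. The gaps of mRpL11 (chr3R:14511713-14511837, plus strand) and mRpS18A (chr3R:8562594-8562672, minus strand) had no pooled candidate.
mRpS10 and Art3: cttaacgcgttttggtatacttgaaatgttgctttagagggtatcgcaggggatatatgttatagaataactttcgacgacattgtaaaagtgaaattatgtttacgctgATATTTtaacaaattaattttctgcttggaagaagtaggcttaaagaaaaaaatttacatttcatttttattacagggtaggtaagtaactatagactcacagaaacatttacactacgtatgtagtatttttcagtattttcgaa
mRpS2 and Mon1: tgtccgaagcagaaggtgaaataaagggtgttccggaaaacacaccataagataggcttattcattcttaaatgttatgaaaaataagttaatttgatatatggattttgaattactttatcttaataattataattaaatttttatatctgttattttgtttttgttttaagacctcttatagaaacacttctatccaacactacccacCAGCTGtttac
mRpL24 and betaggt-I: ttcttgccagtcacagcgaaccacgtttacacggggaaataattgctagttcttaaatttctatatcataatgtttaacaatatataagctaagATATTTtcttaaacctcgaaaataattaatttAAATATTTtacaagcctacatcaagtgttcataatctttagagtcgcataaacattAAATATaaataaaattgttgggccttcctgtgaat
mRpL27 and CG15435: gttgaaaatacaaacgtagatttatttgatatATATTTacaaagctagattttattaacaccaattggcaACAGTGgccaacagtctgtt
mRpL32 and qless: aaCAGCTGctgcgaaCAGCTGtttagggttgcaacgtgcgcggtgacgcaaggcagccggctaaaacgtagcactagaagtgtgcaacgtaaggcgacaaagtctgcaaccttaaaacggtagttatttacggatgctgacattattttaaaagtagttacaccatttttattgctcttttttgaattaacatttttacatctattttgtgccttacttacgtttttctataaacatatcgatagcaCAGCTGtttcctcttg
mRpL11 and HtrA2: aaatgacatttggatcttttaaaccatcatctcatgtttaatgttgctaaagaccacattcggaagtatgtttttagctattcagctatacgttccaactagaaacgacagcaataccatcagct
mRpS18A and CG31460: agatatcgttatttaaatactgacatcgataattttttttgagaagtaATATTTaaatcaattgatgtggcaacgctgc
The 3 gaps shown with an optimal summit inside were AT-rich, with a GC content of 30.1% for mRpS10, 28.1% for mRpS2 and 28.6% for mRpL24. The gap of mRpL32 had a GC content of 39.9%, that of mRpL11 35.2% and that of mRpS18A 27.8%. A low GC content was thus found with and without a peak.

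CG6683-GFP was found at the promoters of a minority of the mRp genes. Of the 73 genes, 14 (19.2%) had an optimal summit within 500 bp of an annotated start, against 13.3% of all protein-coding genes. A further 46 had a pooled candidate summit that was not in the optimal list, and 13 had neither. A candidate of any rank was therefore present at 60 mRp genes, or 82.2%, against 50.5% of all protein-coding genes. Among the genes with a candidate, the share with an optimal peak was 23.3% for mRp genes and 26.4% for all. Most of the candidates at mRp promoters were thus below the optimal list, and the lists do not say which of these are background. Over the 60 genes the pooled signal had a median of 112.5 (quartiles 66.4 and 164.6), beside 103.1 (64.4 and 176.4) over the 7038 protein-coding genes with a candidate.

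**Figure D1:**
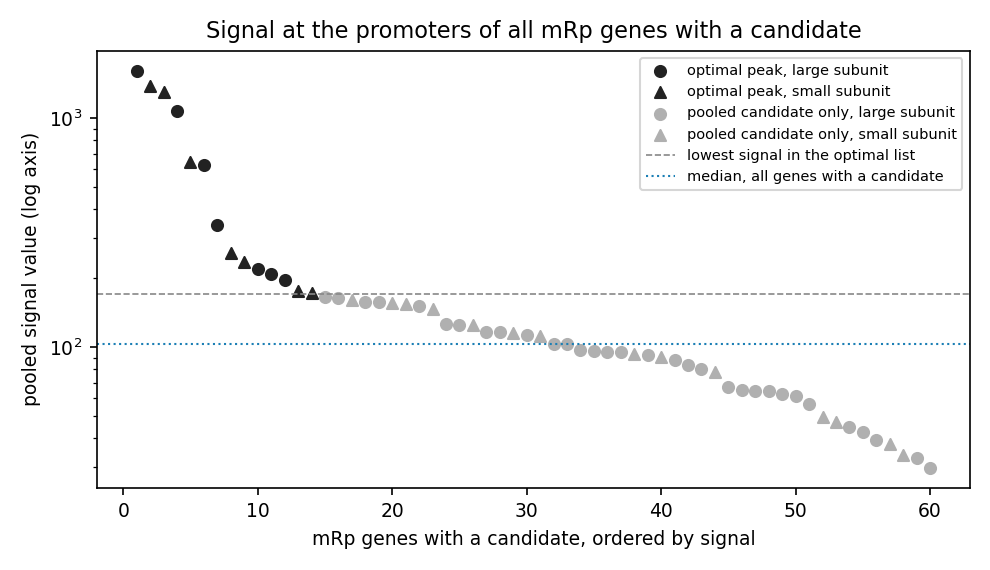
Pooled signal of the 60 mRp genes with a candidate summit within 500 bp of a start, ordered by signal (log axis). Circles are large-subunit and triangles small-subunit genes, black points are the 14 with an optimal peak, the dashed line is the lowest optimal signal (170.6) and the dotted line the median over all genes with a candidate (103.1).

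Peaks fell on both subunits. The optimal list held 7 of the 47 large-subunit genes (14.9%) and 7 of the 26 small-subunit genes (26.9%). By origin, 10 of the 42 genes with a bacterial counterpart had an optimal peak, 5 of 28 in the large and 5 of 14 in the small subunit. Of the 31 mitochondria-specific genes, 4 had one, 2 of 19 in the large and 2 of 12 in the small subunit. This split takes proteins numbered up to 36 (large) or 21 (small) as bacterial-type and was chosen after values had been seen. By chromosome arm, 5 of 12 mRp genes on 2L had an optimal peak (all genes 13.5%), 2 of 12 on 2R (12.3%), 4 of 17 on 3L (14.9%), 3 of 21 on 3R (13.5%) and 0 of 11 on X (12.4%). With so few genes on an arm, no order of the arms can be read from these counts.

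Among bacterial-type proteins of the large subunit, mRpL23 (FBgn0035335), whose counterpart in bacteria lines the exit of the peptide tunnel, had the strongest peak, at chr3L:2373422-2373795. Its signal was 1071 in the pooled list (rank 64), 452.8 in the list labelled replicate 2 (rank 69) and 618.2 in that labelled replicate 3 (rank 69). The rank was thus almost the same in each list. The summit lay at an offset of 72 bp from the nearest of its annotated starts, where negative offsets are upstream, in the 5' UTR of mRpL23. At mRpL24 (FBgn0031651, chr2L:4945320-4945638) the signal was 623.5 pooled, 269.9 in list 2 and 361.5 in list 3. The summit was in the gap shared with betaggt-I, which encodes a subunit of a protein prenyltransferase. At mRpL20 (FBgn0036335, chr3L:13018032-13018268) the signal was 342.9 pooled, 144.4 in list 2 and 183.3 in list 3. Here the summit, at -238 bp, was nearer to Icmt, which encodes a methyltransferase of isoprenylated proteins.

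The 2 other genes of this class were below the median signal of the optimal list. At mRpL27 (FBgn0053002, chr2L:4459517-4459960), a protein that in bacteria reaches toward the peptidyl transferase centre, the signal was 208.1 pooled, 89.5 in list 2 and 114.1 in list 3. Its summit lay in the 5' UTR of the neighbour CG15435, at -101 bp from the mRpL27 start. At mRpL28 (FBgn0031660, chr2L:4973732-4974175) the signal was 196.6 pooled, 98.9 in list 2 and 83.3 in list 3. The summit, at -22 bp, was nearest to mRpL28 itself, and the gene shares its 55 bp gap with the gene FBgn0010607.

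The mitochondria-specific large-subunit genes with an optimal peak were mRpL41 and mRpL44. The mRpL41 peak (FBgn0034001, chr2R:15217548-15217949) was the strongest at any mRp gene. Its signal was 1612 pooled (rank 14), 602 in list 2 (rank 22) and 1011 in list 3 (rank 9). The summit was at -139 bp in a gap of 762 bp to CG8079, the widest gap among the 14. At mRpL44 (FBgn0037330), which in humans has a ribonuclease III-like fold, the signal was 219.2 pooled, 107.7 in list 2 and 124.9 in list 3. Its summit, at -178 bp, was nearer to Snr1, a subunit of the Brahma chromatin-remodelling complex.

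In the small subunit, mRpS10 (FBgn0038307, chr3R:15229352-15229733), a bacterial-type protein of the subunit head, had a signal of 1381 pooled (rank 28), 525.6 in list 2 (rank 41) and 834.9 in list 3 (rank 23). The summit stood near the middle of the gap, at -135 bp from mRpS10 and at -122 bp from Art3, an arginine methyltransferase gene. At mRpS2 (FBgn0031639, chr2L:4850374-4850714) the signal was 640.7 pooled, 226.6 in list 2 and 406 in list 3. Its summit was at -158 bp from mRpS2 and at -64 bp from Mon1, which encodes a subunit of a complex that activates the GTPase Rab7.

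The other bacterial-type small-subunit genes ranked unevenly in the replicates. At mRpS6 (FBgn0035534, chr3L:4364327-4364561) the signal was 258.8 pooled, 75.2 in list 2 (rank 3549) and 200.1 in list 3 (rank 991). At mRpS17 (FBgn0034986, chr2R:24174546-24174989) it was 175.2 pooled, 37.6 in list 2 (rank 10742) and 144.3 in list 3 (rank 1760). Both thus ranked higher in list 3 than in list 2. At mRpS11 (FBgn0038474, chr3R:17072521-17072964), a platform protein in bacteria, it was 171.8 pooled, 113.7 in list 2 (rank 1606) and 57.1 in list 3 (rank 7772), the opposite order. The neighbours are Cip4, an F-BAR protein gene, for mRpS6, Nop60B, which encodes a pseudouridine synthase, for mRpS17, and Ns1, a nucleostemin-family GTPase gene, for mRpS11.

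The mitochondria-specific small-subunit genes with an optimal peak were mRpS23 and mRpS26. At mRpS23 (FBgn0260407, chr2L:13835285-13835648) the signal was 1305 pooled (rank 32), 561 in list 2 (rank 34) and 752.1 in list 3 (rank 34). Its summit was far from its own start, at -381 bp, and at -111 bp from CenG1A, which encodes an Arf GTPase-activating protein. At mRpS26 (FBgn0036774, chr3L:18106156-18106599) the signal was 236.4 pooled, 64.3 in list 2 (rank 4648) and 162.4 in list 3 (rank 1415). This peak again ranked higher in list 3, with its summit at -201 bp. With mRpL41, mRpS10 and mRpL23, mRpS23 was 1 of 4 mRp genes with a peak among the 100 strongest optimal peaks, of 82 protein-coding genes with such a peak. The limit of 100 was not among the planned comparisons, and at mRpS10 and mRpS23 the nearest start was the neighbour's.

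**Figure D2:**
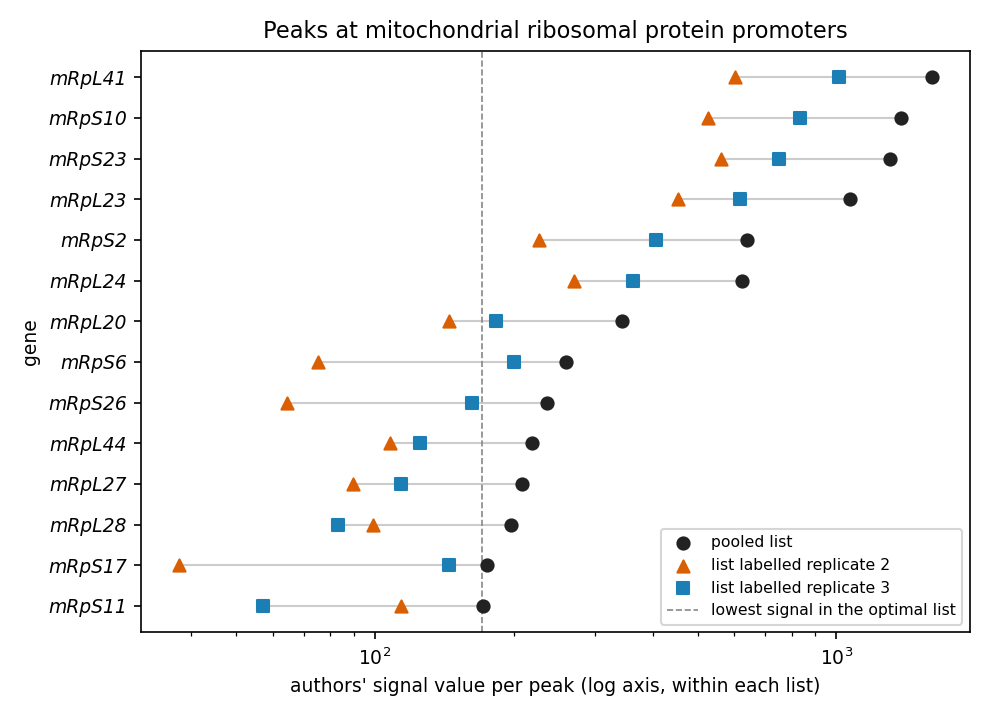
The authors' signal value (log axis) of the peak at each of the 14 mRp genes with an optimal peak in the pooled list (black circles), in the list labelled replicate 2 (orange triangles) and in that labelled replicate 3 (blue squares). The dashed line is the lowest optimal signal in the pooled list, 170.6. The values run from 171.8 at mRpS11 to 1612 at mRpL41 in the pooled list, and signals of different lists are not on a stated common scale.

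The optimal list ends inside a run of mRp genes with similar values. Just inside were mRpS11 (171.8) and mRpS17 (175.2), and just outside was mRpL10, a protein of the ribosomal stalk, with 165.6 pooled, 80.7 in list 2 and 81.4 in list 3. The next were mRpL19 with 164.3 pooled, 58.6 and 103.5, and mRpS22 with 160.7 pooled, 45.8 and 135.8, in lists 2 and 3. The limit thus separated genes with nearly the same pooled signal, and mRpS22 ranked high in list 3 only. mRpL39 had 157.2 pooled, 63.7 and 95.5, beside the proteasome gene Prosbeta2. mRpL34 had 157.1 pooled, 56.8 and 97.2, beside the dystroglycan gene Dg. mRpS18B had 155.3 pooled, 66.9 and 92.8, beside Kua. These 6 had the highest signals among the 46 genes with a candidate only, and the lowest was 29.7 at mRpL37.

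The genes with no pooled candidate were mRpL1, mRpL4, mRpL11, mRpL30, mRpL38, mRpL40, mRpL45 and mRpL54 in the large subunit and mRpS5, mRpS18A, mRpS25, mRpS28 and mRpS35 in the small subunit. Of these 13, 8 had a summit within 500 bp in list 2 and 2 in list 3, and 4 (mRpL4, mRpL40, mRpS5 and mRpS28) had one in neither. mRpL54 had one in both, with a signal of 47.5 in list 2 and 75.3 in list 3. These signals were above those of some genes with a pooled candidate, such as mRpS9 with 37.1 in list 2, 48 in list 3 and 77.6 pooled, and why mRpL54 had no pooled candidate was not tested. mRpS9 was chosen here after its values were seen.

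The replicate lists gave similar shares. Each was restricted to its 2964 peaks of highest signal, as many as there are optimal peaks. In list 2, 13 mRp genes (17.8%) had such a peak at the promoter, against 14.1% of all genes, and in list 3 also 13, against 12.8%. In both lists at once there were 9 (12.3%), against 9.09%, and all 9 were genes with an optimal peak. Of the other 5 with an optimal peak, mRpL28 and mRpS11 reached this part in list 2 only, and mRpS6, mRpS17 and mRpS26 in list 3 only. The first pair had a GC content around the summit of 40.8% and 42.3%, and the other group one of 26.4%, 30.3% and 28.4%. Among these 5 genes, GC content thus differed with the list in which the peak ranked high. This sets only 2 genes against 3, and the part of GC content in the ranks was not tested. Among genes outside the optimal list, mRpL33 and mRpL53 reached the upper part of list 2 and mRpS22 that of list 3.

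All 14 genes had a candidate overlapping the optimal peak in both replicate lists, and of the 46 with a candidate only, 39 did. IDR thresholding uses agreement of replicates, so the overlap at the 14 is no independent support. Overlap does not require nearby summits: at the 39, replicate summits lay from 0 to 359 bp from the pooled one. Summits of the 2 replicate lists were a median of 27 bp apart over the 14 genes (quartiles 7.75 and 58.8 bp), from 3 bp to 160 bp. Spearman's rho of the 2 lists' signals over the 14 was 0.754, as a description of genes measured in the same 2 libraries.

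Every mRp gene with an optimal peak stood head to head with a protein-coding neighbour, as did 63.1% of all genes with an optimal peak. A partner was counted where a start on the opposite strand lay 0 to 1000 bp upstream. Of the 73 mRp genes, 58 (79.5%) had one, against 36.2% of all protein-coding genes. Of these 58, 14 (24.1%) had an optimal peak, against 23.2% of the 5052 genes with a partner. Of the 15 mRp genes without a partner, 0 had an optimal peak, against 7.7% of such genes, and 15 genes are few to read a difference from. Over the 4994 other genes with a partner the share was 23.1%, so the mRp share was near that of genes arranged alike, and the difference was not tested. A candidate was present at 49 of the 58 (84.5%), against 73.6% of all genes with a partner, and at 11 of the 15 without, against 37.3% of such genes.

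The gap was about as wide at mRp genes with a peak as at the others. It had a median of 273.5 bp (from 24 to 762 bp) for the 14 and of 283 bp for the other 44 with a partner, beside 298 bp over all genes with a partner. An optimal peak was found at 4 of 18 mRp genes with a gap up to 100 bp (all genes 21.3%) and at 4 of 15 with one over that and up to 300 bp (28.2%). It was found at 5 of 20 with a gap over that and up to 500 bp (26.4%) and at 1 of 5 with a wider one (14.1%).

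The summit lay inside the gap at 11 of the 14 genes and in a 5' UTR at mRpL23, mRpL27 and mRpS11. The nearest protein-coding start was that of the mRp gene at 6 (mRpL23, mRpL28, mRpL41, mRpS6, mRpS11 and mRpS26) and that of the partner at 8. These lists therefore cannot say which gene of a pair a peak belongs to. Measured from the mRp gene, the offset had a median of -142 bp (quartiles -195.2 and -104.2 bp), and 12 of 14 summits were upstream. Over all 1855 genes with an optimal peak the median was -145 bp (quartiles -237 and -71 bp), with 86.3% upstream. At the 46 genes with a candidate only, the median was -113.5 bp, with 37 upstream.

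**Figure D3:**
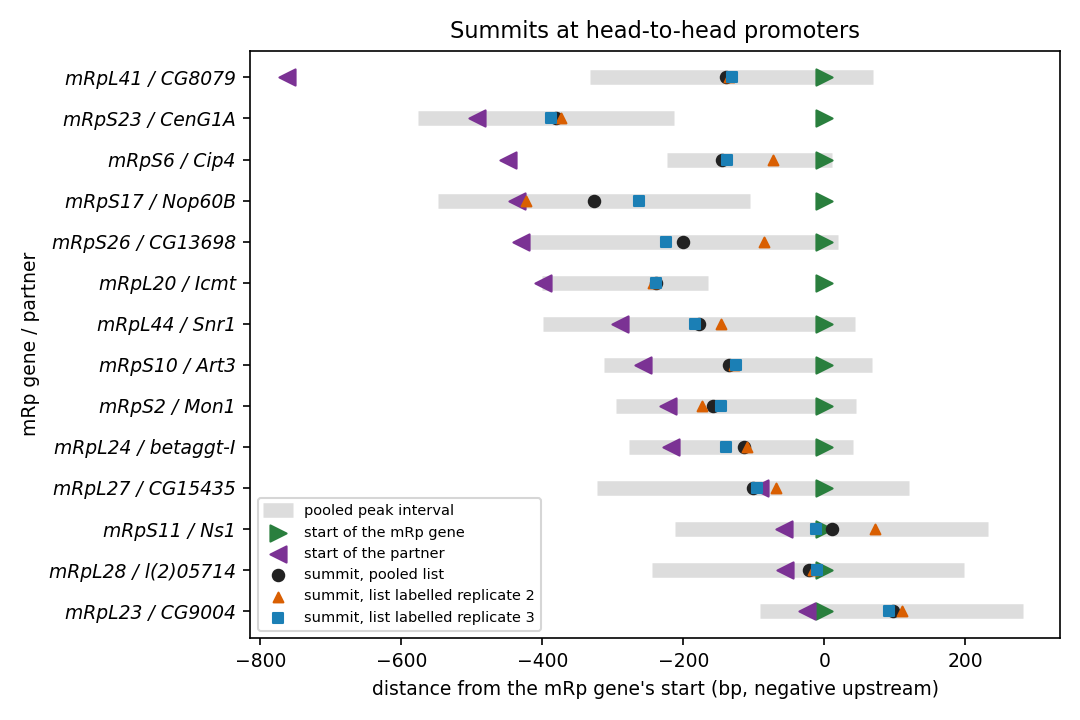
Position of the summits at the 14 mRp genes with an optimal peak, ordered by the width of the gap to the head-to-head partner, in bp from the start of the mRp gene that faces the partner (negative upstream), which is not the nearest start at mRpL23. Green and purple arrowheads are the starts of the mRp gene and the partner, grey bars the pooled peak intervals, and points the summits in the pooled list and both replicate lists. Of the 14 pooled summits, 11 lie between both starts.

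The sequence around the 14 optimal summits of mRp genes was AT-rich, and that around the candidate-only summits was less so. Within 100 bp of the optimal summit, the GC content had a median of 27.9% over the 14 genes (quartiles 26.4% and 34.5%), from 24.9% at mRpL44 to 42.3% at mRpS11. It was below 31% at 10 of the 14. At the 46 summits with a candidate only the median was 35.6% (quartiles 31% and 40.2%). Optimal peaks at any protein-coding start had a median of 34.3% (n = 1328), and those at genes with a head-to-head partner also had 34.3% (n = 663), of which 18.3% were at or below the median of the mRp genes. Whole promoters, from 250 bp upstream to 50 bp downstream of the start, differed less. Their median GC content was 33.6% at mRp genes with an optimal peak and 35.9% at the others, beside 37.9% over all genes.

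**Figure D4:**
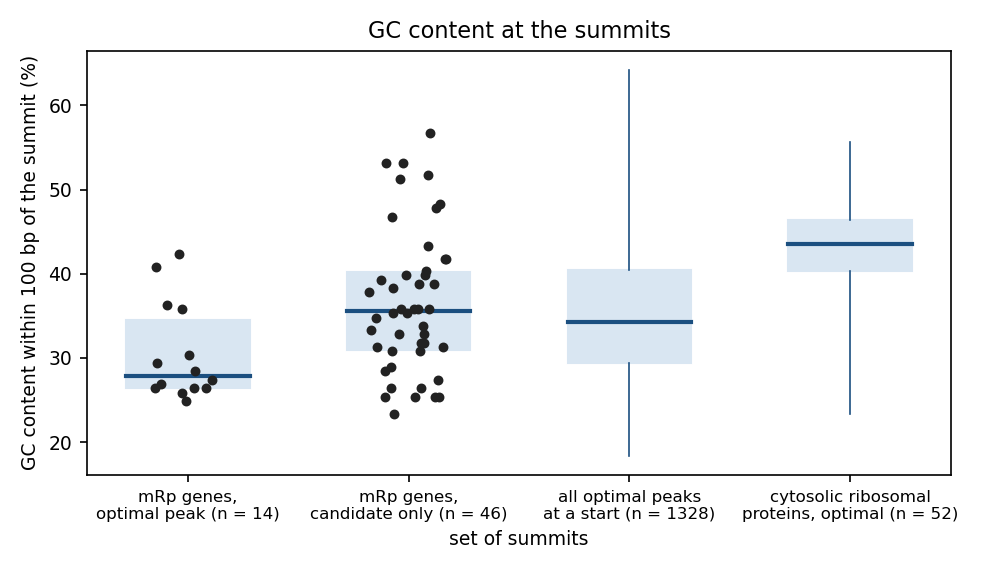
GC content within 100 bp of the summit, in percent, for optimal and candidate-only summits at mRp genes (points are genes), for all optimal peaks at a protein-coding start and for optimal peaks at cytosolic ribosomal protein genes. Boxes run from the lower to the upper quartile, the thick line is the median (27.9%, 35.6%, 34.3% and 43.5%) and thin lines reach the lowest and highest value.

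The promoters of mRp genes were rich in E-boxes, with and without a peak. The palindrome CAGCTG, known as Ohler motif 5 of fly core promoters, was found in 40 of the 73 promoters (54.8%), against 17.7% of all promoters and 22% of those with a partner. Among the 14 with an optimal peak 7 had it (50%), and among the 59 without, 55.9% did, so its share was similar with and without a peak. The 7 were mRpL23, mRpL24, mRpL28, mRpL41, mRpS2, mRpS6 and mRpS17. A copy began within 50 bp of the start in 35 mRp genes (47.9%), against 9.34% of all promoters, and the copy nearest the start had a median position of 4 bp. The E-box thus sat at the start, and the summits mostly upstream of it. Within 100 bp of the summits, 2 of the 14 optimal and 12 of the 46 candidate-only peaks held it, against 11% of all optimal peaks at a start.

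Other elements were searched on both strands in the same windows. The palindrome TATCGATA (DNA replication-related element) was in 15 mRp promoters (20.5%), against 9.37% of all and 15.8% of those with a partner, and in 2 of the 14 with an optimal peak. The core GGTCACAC of Ohler motif 1, which the zinc-finger protein M1BP binds, was in 8 (11%), against 7.71% of all and 13.2% of those with a partner. CATCNCTA of Ohler motif 7 was also in 8, against 6.43% of all and 10.9% of those with a partner. None of these 3 was more frequent at mRp genes with an optimal peak than at the other mRp genes. GAGAG, the element of GAGA factor, was in 12 (16.4%), against 29.8% of all promoters. The TATA box, searched as TATAAA, was in 34 (46.6%), against 45.9%, and GCATGCGC (bound by the NRF-1 homologue Ewg) in 1, against 1.05%. GAGAG was thus the only one of the 7 elements with a lower share in mRp promoters than both in all promoters and in those with a partner (23.6%).

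**Figure D5:**
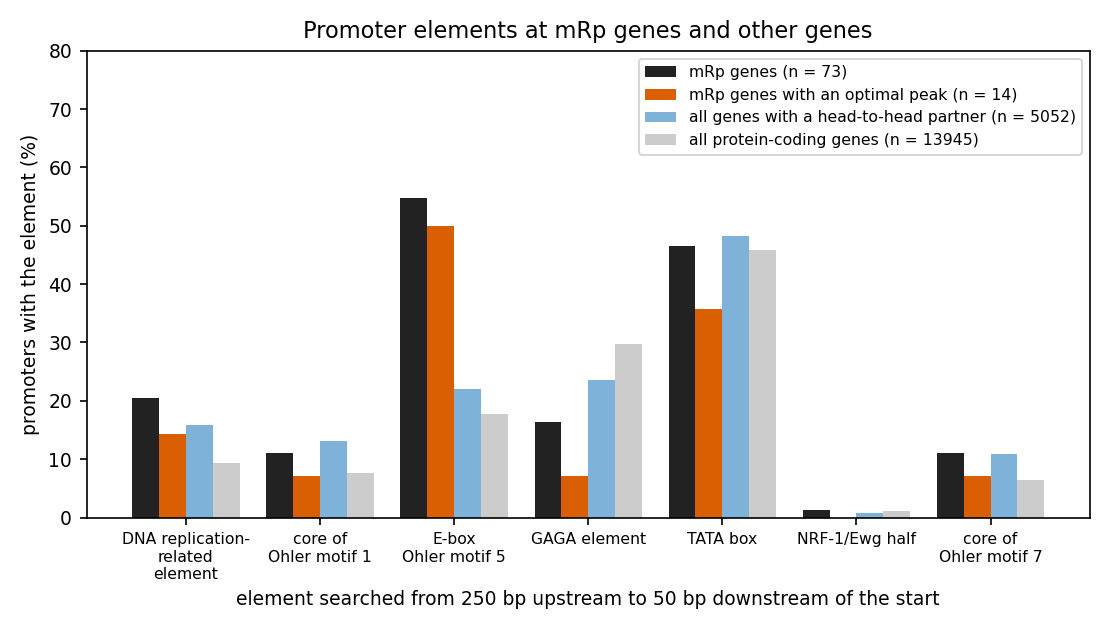
Percentage of promoters (250 bp upstream to 50 bp downstream of the start) that hold each of 7 elements on either strand, for the 73 mRp genes, the 14 of them with an optimal peak, all 5052 genes with a head-to-head partner and all 13945 protein-coding genes. The E-box is found in 54.8% of mRp promoters and in 17.7% of all.

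ACAGTG and AAATAT, 6-base words chosen from earlier results on the summits of these data, were the last searched. AAATAT can share letters with TATAAA where the 2 adjoin. ACAGTG was in 13 of the 73 promoters (17.8%), against 14% of all. Of these, 6 were among the 14 genes with an optimal peak and 7 among the other 59. Over all genes with an optimal peak, ACAGTG was in 21.3% of promoters. At the summits it was in 4 of 14 (mRpL20, mRpL27, mRpS2 and mRpS23), against 16.9% of optimal peaks at a start, and in 1 of 46 with a candidate only. Since these words were picked from summits that include these 14, the counts are no independent support. AAATAT was in 10 of 14 optimal summits (71.4%), against 57.2%, and in 23 of 46 with a candidate only. The 4 copies in the mRpL24 gap can be read in the sequences above.

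Genes for cytosolic ribosomal proteins are set beside the mRp genes for the share with a peak, its position, GC content and some promoter elements. Of 85 such genes, 52 (61.2%) had an optimal peak, of which 36 had a head-to-head partner. Their summits lay at a median of -30.5 bp (quartiles -56.5 and -0.75 bp), closer to the start than at mRp genes, and the GC content there had a median of 43.5%. An E-box was in 8.24% of their promoters. GAGAG was in 17.6%, near the mRp share of 16.4%, so its low share was not particular to mRp genes. TATCGATA was in 29.4%, above the mRp share of 20.5%. No test was made of these differences, since the genes were chosen with results known.

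Of 35 other genes of mitochondrial gene expression, 20 had a candidate at the promoter (50.5% over all genes) and 3 an optimal peak (13.3% over all genes). The strongest was at PNPase, the polynucleotide phosphorylase of mitochondrial RNA turnover, with 1398 pooled, 564.9 in list 2 and 834.5 in list 3. mTerf5, of the mitochondrial transcription termination factor family, had 234.8 pooled, 94.2 and 139.4. ArgRS-m, the mitochondrial arginyl-tRNA synthetase, had 176.6 pooled, 107.8 and 77.3, and each of these 3 genes also has a head-to-head partner. By class, an optimal peak was found at 1 of 16 genes listed as aminoacyl-tRNA synthetases. These were the genes with symbols ending in RS-m, and Slimp. Such a peak was found at 2 of 11 genes for transcription, RNA and assembly factors and at 0 of 8 translation factor genes. All 35 genes were chosen by symbol.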

How the data were processed

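The deposited files are peak lists on dm6 and dm3: for each build an optimal list after IDR thresholding, a pooled candidate list and a candidate list per replicate, per the labels and file metadata. The pooled candidate list is labelled as peaks and background used as input for IDR. Each dm6 candidate list held 30000 entries. Column 7, the signal value per peak, and the summit position within each peak are as deposited by the authors, and no normalization is stated. No source used here names the aligner, the peak caller or the threshold (not given in the sources used here), and there are no read counts, so depth and its precision are unknown. The age label could not be interpreted, and the range was taken from the source name.

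Starts were taken from Ensembl release 115 (BDGP6.54) and sequences from the RefSeq Release 6 genome, in dm6 coordinates, 1-based. Peaks on 2L, 2R, 3L, 3R, 4 and X were used. A gene was counted where a summit lay within 500 bp of any start of any transcript, and the summit of highest signal was described. Replicate values are those of the candidate overlapping the pooled peak. The dm3 lists served only to compare replicate labels. GC content was computed within 100 bp of each summit.

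Named are all mRp genes with an optimal peak and their partners, the 6 of highest signal with a candidate only, those without a candidate, and those in the upper part of a replicate list. The sequence and position of 1 gap are not reported here. mRpL32 was added after its sequence had been seen. The genes, lists and words searched were chosen with earlier results of these data known. All comparisons are descriptive, with no test, since there is 1 group and no counts. Alternatives were the upper 50% of optimal peaks by signal, promoter windows of 200 or 1000 bp, each replicate's own list, other rules for starts, overlap, assignment and partners, and other sequence windows. The lookup was tested on simulated data. The software was pandas 2.3.3, NumPy 2.4.6 and SciPy 1.17.1 under Python 3.11.15, with figures by matplotlib 3.10.9.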

Additional observations from a re-analysis of the deposited data

How the results depend on the processing

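The count of mRp genes with an optimal peak, 14 in the main setting, ran from 10 to 15 over the other promoter windows. It was 14 with the most 5' start only and 11 where the peak had to cover a start. It fell most when a shared promoter was assigned to the nearest start. When a summit counted only for the nearest protein-coding start, 6 genes had an optimal peak (all 6 with a partner), 38 a candidate, and the median offset was -80.5 bp. The share over all protein-coding genes was not computed under this rule, so the fall cannot be set against that of other genes. With the upper 50% of optimal peaks there were 7 genes, all with a partner (7.28% over all protein-coding genes), and 2 had the summit nearest to their own start. A window of 200 bp gave 10 genes, without mRpL20, mRpS17, mRpS23 and mRpS26, and a median offset of -124.5 bp, and over all protein-coding genes 9.06% had a peak. A window of 1000 bp gave 15, and 15.6% of all genes. With either replicate list alone there were 13 and 13 genes, the median offset ran from -146 to -128 bp and the median GC content from 27.9% to 30.3%, the higher value without replicate 3. With the number of peaks taken from each replicate list doubled, 18 genes were in both, beside 9 before. The share over all genes was not computed at this depth, so the rise cannot be read as particular to mRp genes. Requiring a candidate in both replicate lists, chosen after seeing the data, could not change the 14, since each has one, and it shows nothing on stability. Of 47 values under the other settings, 11 moved beyond the set limits. A fall from 14 to 10 genes was counted as within these limits. The median offset stayed upstream in each setting where it was computed. The other values are counts and a GC content, which have no direction to reverse. The cause of the 11 moves was not tested. No paired analysis was possible because there is 1 group. Read depth is unknown, so no interval could be given for a peak, and a list of fixed length cannot show that a promoter is unbound.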
